A study of Mus musculus with 39 samples.

Results

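The genes described here were silent or nearly so in intact 2-cell mouse embryos and present in every intact 4-cell embryo. A gene was taken if its level was under 0.5 CPM (the share of a library's counts that fall on the gene, times 1000000, or M) in each of 5 intact 2-cell embryos and at least 5 CPM in each of 4 intact 4-cell embryos. Of 55487 genes in the count table, 29390 of them with a count in some library, 51 met both limits, and 49 remained after Foxa1 and Sox21 were left out. Id3, which was to be left out as well, did not meet the limits, since its lowest intact 4-cell level was 3.73 CPM. The intact embryos therefore chose the genes, and their values in these 9 embryos are description only. Every test below was made in separated embryos, whose blastomeres were sequenced one by one and which the choice did not use. The exception is an alternative fit of all embryos, named in the last section.

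All embryos were wild type, with no treatment named in the labels, and strain, litter and time after separation are not given in the sources used here. There were 19 embryos in 39 libraries: 5 intact 2-cell embryos, 5 separated 2-cell embryos (10 blastomeres), 4 intact 4-cell embryos, and 5 separated 4-cell embryos (20 blastomeres). Of the separated 4-cell embryos, numbers 2, 3 and 4 belong to batch 1, like all other embryos, and numbers 6 and 7 to a batch 2 that holds nothing else. Sister blastomeres were added up, so that n counts embryos. No label says that the embryos had different parents, so a p-value reflects how much these embryos vary, part of which can be technical. Total counts were 7.16 to 9.89 M in intact 2-cell and 2.74 to 4.19 M in intact 4-cell embryos. They were 14.2 to 56.2 M in separated 2-cell embryos, 13 to 15.8 M in separated 4-cell embryos of batch 1, and 86.8 and 103 M in batch 2. Maternal oocyte transcripts summed to at least 27400 CPM in each 2-cell embryo and to at most 3500 CPM in each 4-cell embryo, and 7 of 21 tested were lower at the 4-cell stage in separated embryos, as were 8 of 20 tested zygotic 2-cell genes. Markers of sperm, of blood, of oviduct epithelium and of the cumulus and granulosa summed to between 0 and 82.6 CPM per embryo and list. The cumulus list (16 genes, 8 to 13 of them at 0 in a group) summed to 63.5 to 82.6 CPM in batch 2, 0.996 to 41.6 in separated 2-cell, 17.6 to 27.7 in batch 1 4-cell, 4.37 to 68.6 in intact 2-cell and 16.2 to 46.7 in intact 4-cell embryos. Of its genes, Lhcgr, Inha, Cd44 and Ptgs2 were at 0 in every group, while Fshr, Foxl2 and Cyp19a1 had counts in batch 2 only. Has2 and Ptx3 had counts in intact 2-cell embryos only, and Cyp11a1 and Inhba in intact 4-cell embryos only. The blood genes Alas2, Ptprc and Hbb-bs had counts in batch 2 only, and Lyz2 in separated 2-cell embryos only. The blood list (12 genes) summed to 2.07 to 13.3 CPM in batch 2 and 2.85 to 50.6 CPM in batch 1 4-cell embryos. In the other groups it summed to 4.85 to 27.1 (intact 2-cell), 4.2 to 24.2 (separated 2-cell) and 1.86 to 19 CPM (intact 4-cell). The part of any marker in the results was not tested.

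In the mouse, development starts on RNA and protein stored in the oocyte. The embryo's own genome is switched on in a minor wave in the zygote and a major wave at the 2-cell stage, while maternal transcripts are degraded. A gene that appears after that wave, and of which the oocyte stored no transcript, goes from near 0 to a measurable level between these stages. The level per embryo cannot tell apart fewer cells with a transcript and less transcript per cell, which is why values of single blastomeres follow.

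No gene list used here held most of the 49 genes. GENCODE M21 gave 1 gene model for 46 of them (not for Zfp267, Lrrc70 and AC127285.1), and 39 of these were protein coding (84.8%, against 77% of the tested genes with a model). They lay on 18 chromosomes, with at most 6 on 1 of them. Median exonic length was 3521 bases, against 3499 for tested genes. By name, 26 fell in none of the gene lists used, and 11 were predicted or unnamed genes. The others were spread over mitochondrial, metabolic, DNA repair, splicing, ubiquitin, zinc finger, kinase, cilium and membrane protein lists with 1 or 2 genes each. The lists are incomplete, so a shared function can be missed. Dmac1, Idh3b, Hand1 and Drc1, whose functions are given below, were in none of them. The exons of 16 of the genes overlapped those of another gene; strandedness of the counting is not given in the sources used here, so reads of Idh3b and Nop56, of Mrpl19 and Gcfc2, or of Syce1l and its same-strand neighbour Mon1b may not be separable.

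Promoters are shown for the 5 genes with the highest level in batch 1 separated 4-cell embryos among those that were higher at that stage. Over the separated 2-cell embryos Dmac1 had 1 count and Fbp2, Sycn, Crygs and Dnajc24 had none. Over the intact 2-cell embryos Dmac1 had 3 counts, Fbp2 2, and Sycn, Crygs and Dnajc24 1 each. Each line gives the 250 bases before the RefSeq start site (build GRCm38.p6), 5′ to 3′ in the direction of the gene. Capitals mark matches, on either strand, to any of 8 short motifs. Among the promoter elements searched were the TATA box, as TATAAA, the GC box bound by Sp1, as GGGCGG, and the box of the factor NF-Y, as CCAAT. The others were an ETS element, as CCGGAAG, the E-box of helix-loop-helix factors, as CACGTG, an element of orphan nuclear receptors, as AAGGTCA, the core of the NRF1 element, as GCATGCG, and that of YY1, as AAGATGG. None of the 8 contains another.
Dmac1, chr4:75278293-75278542, minus strand: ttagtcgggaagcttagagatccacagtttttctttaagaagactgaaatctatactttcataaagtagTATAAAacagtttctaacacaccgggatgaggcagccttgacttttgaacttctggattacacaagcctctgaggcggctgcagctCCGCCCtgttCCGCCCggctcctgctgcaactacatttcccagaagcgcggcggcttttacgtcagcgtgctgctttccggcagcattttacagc
Fbp2, chr13:62858401-62858650, minus strand: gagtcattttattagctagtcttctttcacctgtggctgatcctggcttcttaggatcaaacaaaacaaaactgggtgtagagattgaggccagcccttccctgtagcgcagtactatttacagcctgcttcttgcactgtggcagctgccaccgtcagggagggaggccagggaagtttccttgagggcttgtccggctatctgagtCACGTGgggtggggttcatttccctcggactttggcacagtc
Sycn, chr7:28540635-28540884, plus strand: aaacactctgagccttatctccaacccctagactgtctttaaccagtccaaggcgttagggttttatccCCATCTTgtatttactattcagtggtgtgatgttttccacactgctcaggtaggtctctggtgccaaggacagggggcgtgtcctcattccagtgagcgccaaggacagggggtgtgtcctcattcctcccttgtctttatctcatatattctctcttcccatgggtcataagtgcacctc
Crygs, chr16:22811411-22811660, minus strand: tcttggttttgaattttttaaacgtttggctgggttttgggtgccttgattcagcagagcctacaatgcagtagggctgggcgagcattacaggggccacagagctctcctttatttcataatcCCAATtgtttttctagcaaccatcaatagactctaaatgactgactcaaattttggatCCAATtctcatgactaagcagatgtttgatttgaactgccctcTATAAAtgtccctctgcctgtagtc
Dnajc24, chr2:106003550-106003799, minus strand: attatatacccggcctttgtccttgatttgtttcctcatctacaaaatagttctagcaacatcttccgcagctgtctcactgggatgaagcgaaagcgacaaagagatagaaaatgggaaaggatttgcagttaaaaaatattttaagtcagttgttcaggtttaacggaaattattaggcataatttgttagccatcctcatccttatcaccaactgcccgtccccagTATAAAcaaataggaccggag

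A window of 300 bases, 250 before and 50 after the start site, was at hand for 36 of the 49 genes. TATAAA was in 8 of the 36 windows (22.2%), against 7.92% of tested genes and 14.2% of all windows. On the sense strand it began 25 bases before the RefSeq start site in Crygs, 21 in Dnajc24 and 38 in Zfp317. That is near the distance at which a TATA box is usually found, but it was 181 in Dmac1 and 9 in Gm10461. A start between 20 and 40 bases was found for Crygs, Dnajc24 and Zfp317 (8.33% of 36), 1.41% of tested genes and 2.23% of all windows. This stretch was chosen after the shares had been seen. RefSeq and GENCODE starts can differ, by 167 bases in Crygs, 0 in Dnajc24, 11 in Zfp317, 13 in Dmac1 and 3773 in Gm10461. In Crygs the RefSeq start and this TATAAA lie inside the GENCODE gene model. In Mast3 the starts were 12621 bases apart. GGGCGG was in 38.9% of the genes' windows, against 60.3% of tested genes and 36% of all windows. CCAAT (38.9%, 39.8% and 37.9%), CCGGAAG (16.7%, 17.8% and 9.16%), CACGTG (13.9%, 9.79% and 7.22%), GCATGCG (5.56%, 6.46% and 3.65%) and AAGATGG (2.78%, 7.37% and 6.48%) are given in the same order. No window held AAGGTCA, which was in 3.37% of tested genes and 4.64% of all windows. Median GC content was 54.5% against 60% in tested genes. A ratio of observed to expected CpG above 0.6, as in CpG islands, was found in 44.4% against 67.5%. These are shares of letters in a window and say nothing of which factor binds.

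The 49 genes were at 0 to 0.419 CPM in the intact 2-cell embryos, where 13 had no count in any of the 5 and the largest summed count of a gene was 8. Their mean level in intact 4-cell embryos ran from 6.99 to 486 CPM with a median of 21. Within a gene, the highest of the 4 intact embryos was a median of 2.73 times the lowest, and over 4 times in 14 genes. Per kilobase of exon, among the 46 genes with a model, the highest mean levels were 128 CPM for Gm38299, a gene model of unsettled coding status, and 78.3 CPM for Sycn. At the 2-cell limit, Gm38299 and Drc1 (both 0.419 CPM at most) were just inside, and 2610044O15Rik8 (0.53) and Tulp1 (0.663) just outside. At the 4-cell limit, Cacng7 (5.01 CPM at least) and Gm34653 (5.06) were just inside, and Osbpl3 (4.79) and Ndufb4 (4.75) just outside.

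**Figure D1:**
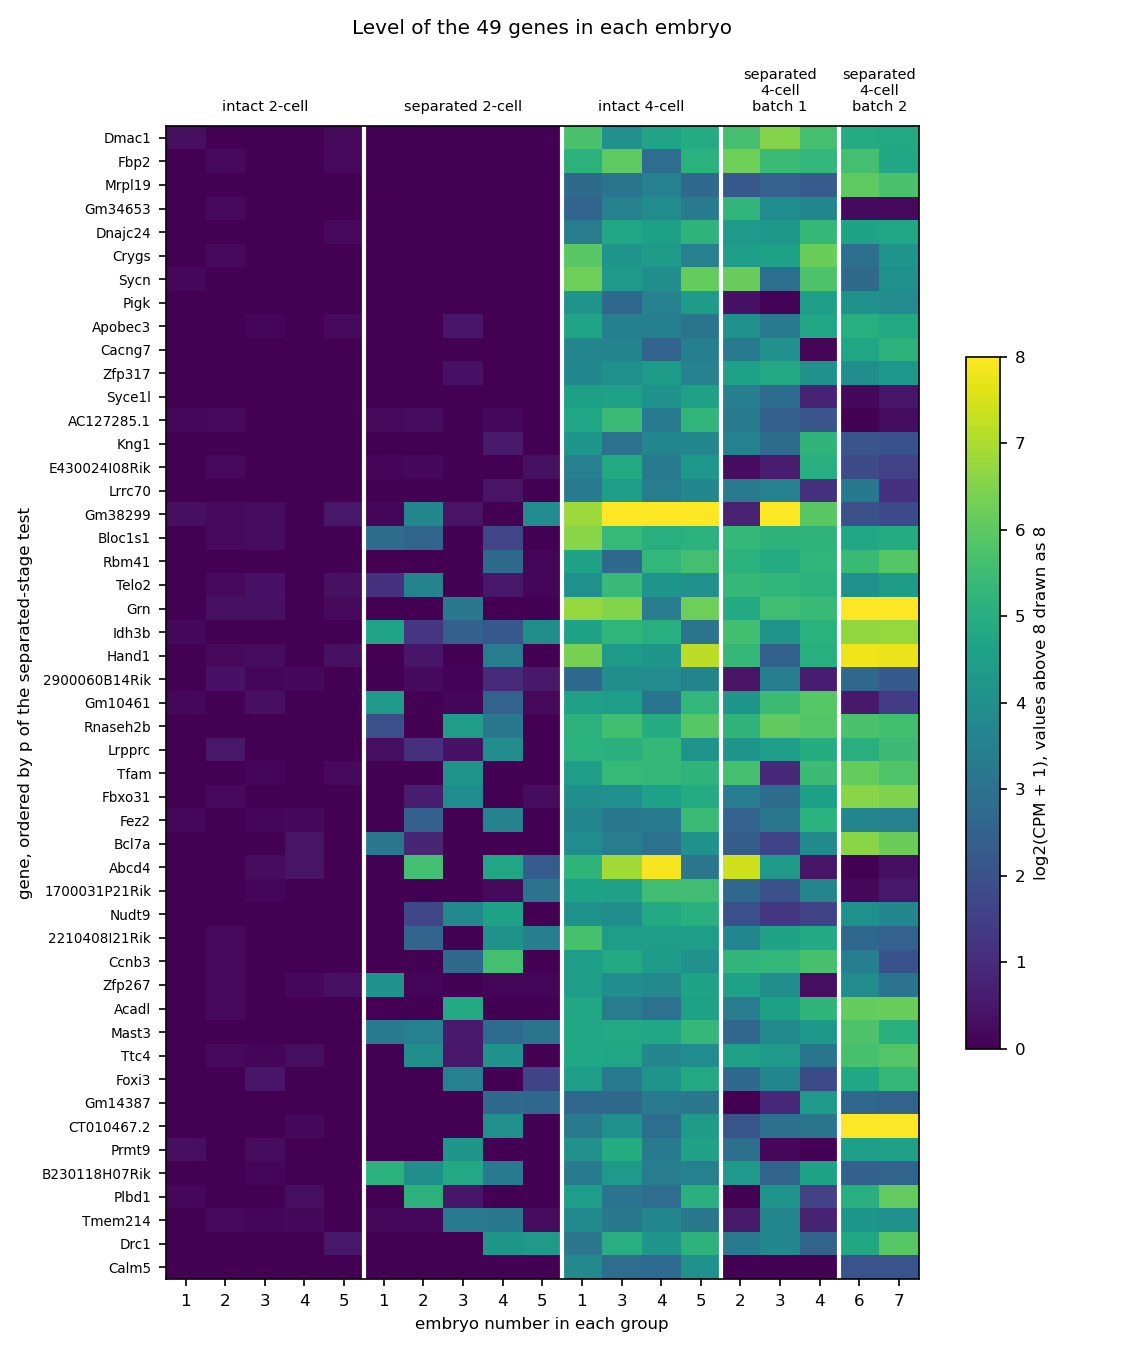
Level of each of the 49 genes (rows, ordered by the p of the separated-stage test) in each of the 19 embryos (columns, by group and embryo number), as log2(CPM + 1) in colour, with values above 8 drawn as 8. The intact 2-cell columns are dark throughout because the choice required it; in separated 2-cell embryos 17 genes stay under 0.5 CPM and 31 reach 5 CPM in 1 to 4 of the 5 embryos.

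In separated embryos, 12 of the 49 genes were higher at the 4-cell stage (24.5%), against 2.66% of the 16795 genes tested, of which 5.08% differed in either direction (edgeR quasi-likelihood test with batch as a term, Benjamini-Hochberg adjusted p under 0.05 over all tested genes). None was lower, where the background was 2.42%. None was lower by DESeq2, which called 3512 of 28118 genes, 1459 of them higher. The same held for limma voom, which called 1017 of 16795 genes, 668 of them higher. None was lower at an unadjusted edgeR p under 0.05, with no share of all tested genes taken. At an unadjusted p under 0.05, 20 were higher, a count for which the share of all tested genes was not taken. All 49 had passed the filter on low counts. The fitted log2 fold change was above 0 in 44 genes and below 0 in 4, and was 0 for Calm5, which had no count in separated 2-cell or batch 1 4-cell embryos and counts only in batch 2. The median was 2.996 over the 48 other genes and 2.955 with Calm5 at 0, against -0.18 for all tested genes. The count was 7 without separated 2-cell embryo 1 or 5 (1.92% and 1.78% of tested genes) or without 4-cell embryo 6 or 7 (1% and 0.99%), and 8 to 13 without any other single embryo (0.852 to 3.36%). It was 25 with each blastomere as a library, where 12.5% of 10843 tested genes were higher; sisters are not independent there.

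Without a model, all 3 batch 1 4-cell embryos lay above all 5 separated 2-cell embryos in 21 of the 49 genes (42.9%), against 11.0% of tested genes. Over both batches this held in 20 (40.8%, against 7.19%). The limits that chose the genes in intact embryos, under 0.5 and at least 5 CPM, were met again in separated embryos of batch 1 by 9 genes (18.4%, against 0.476% of tested genes), and by 7 over both batches (background 0.322%). Of the 80 genes that met them in batch 1, 11.2% were among the 49.

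**Figure D2:**
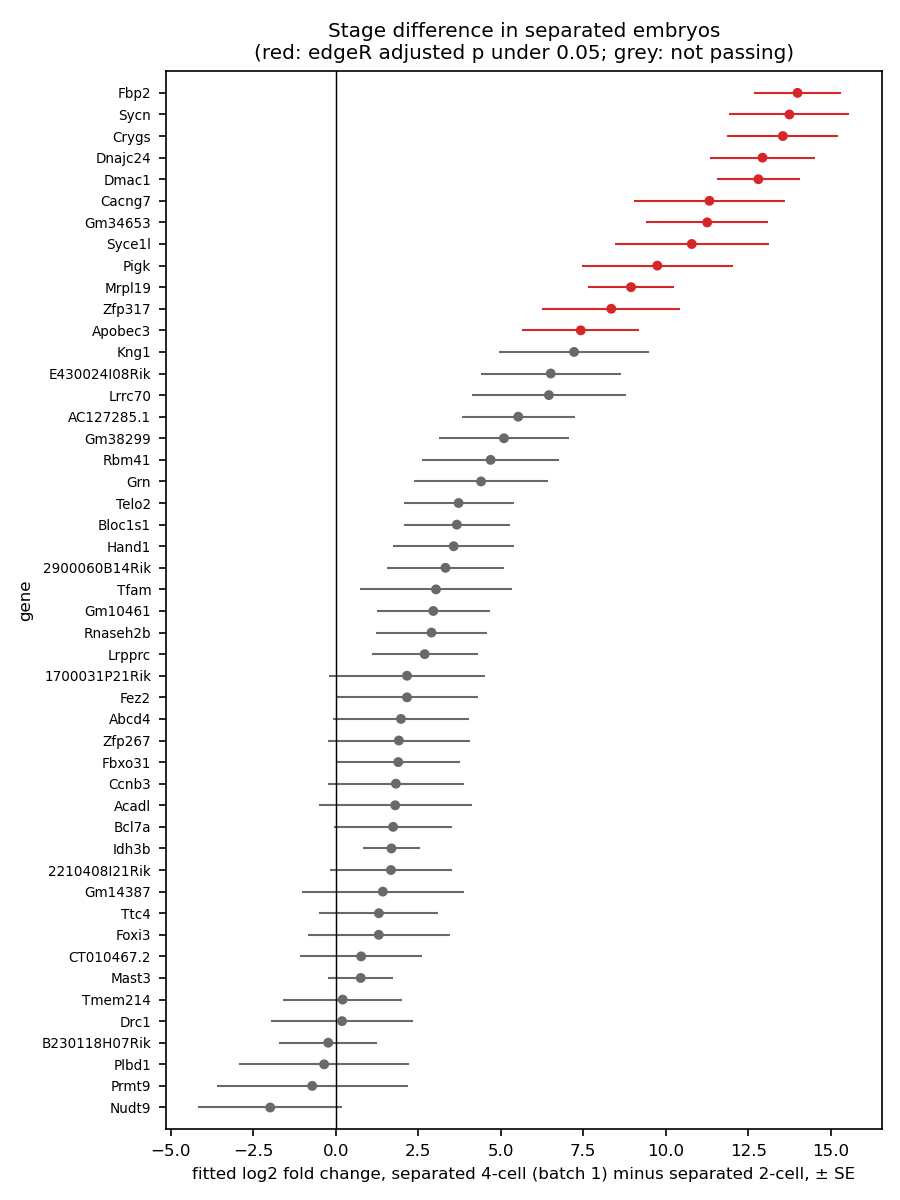
Fitted log2 fold change (x axis, points) with its SE (bars) between separated 4-cell embryos at the batch 1 level and separated 2-cell embryos, for 48 genes (y axis; Calm5, with no count in these groups, is left out). Red marks the 12 genes with an edgeR adjusted p under 0.05, which have the 12 highest values; the 4 lowest values are below 0. Fitted values of genes without a count at the 2-cell stage depend on the prior count and are no bound.

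Of the 12 genes that rose, 6 had no count in any separated 2-cell embryo, where 3 counts over the group would be 0.0161 CPM. Fbp2 (chr13:62836877-62858422, GRCm38), the muscle-type fructose-1,6-bisphosphatase of gluconeogenesis, was one of them. In separated 4-cell embryos it stood at 73.8, 42.9 and 38.3 CPM in batch 1 (51.6 ± 19.3, SD, n = 3) and at 47.3 and 26.3 CPM in batch 2. Every 4-cell embryo lay above all 2-cell embryos. Over the pooled counts of batch 1 the gene was at least 3259-fold higher than over those of the 2-cell group (edgeR adjusted p = 0.00424), and the bounds below and the ratios given with an interval are from pooled counts as well. In the intact 4-cell embryos it was at 34.6, 64.3, 6.20 and 33.5 CPM.

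Dnajc24 (chr2:105966709-106003549), a DnaJ protein of diphthamide synthesis on elongation factor 2, was at 19.1, 18.3 and 38.9 CPM in batch 1 and at 23.5 and 25.5 CPM in batch 2. The batches overlapped, and the gene rose 1527-fold or more (edgeR adjusted p = 0.00892). Crygs (chr16:22805203-22811577) encodes a crystallin known from the lens. It was at 21.2, 23.4 and 73.5 CPM in batch 1 and 6.62 and 16.6 CPM in batch 2, and rose at least 2314-fold (edgeR adjusted p = 0.00921). Sycn (chr7:28540885-28542209), a protein of the secretory granules of the pancreas, varied over a wide range, with 71.8, 6.43 and 52.9 CPM in batch 1, 5.76 and 15.1 CPM in batch 2. Its lowest 4-cell embryo still lay above every 2-cell embryo, and it rose at least 2690-fold in batch 1 (edgeR adjusted p = 0.0109).

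Cacng7, a subunit that assists AMPA-type glutamate receptors, was at 8.67, 15.5 and 0.0767 CPM in batch 1, so that 1 embryo was near 0, and at 24.9 and 35.0 CPM in batch 2. It rose 530-fold or more (edgeR adjusted p = 0.0402). Syce1l, related to a component of the synaptonemal complex of meiosis, was at 9.74, 6.11 and 0.69 CPM in batch 1 and only 0.126 and 0.394 CPM in batch 2, against 15.7 to 23.0 CPM in intact 4-cell embryos. It rose at least 361-fold (edgeR adjusted p = 0.0489), a call lost when any 1 of the 10 embryos was left out.

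Of the other 6, 4 had a single count over the 5 separated 2-cell embryos. Dmac1 (chr4:75277354-75278305) encodes an assembly factor of respiratory complex I and had the smallest p of the 49. It was at 49.2, 90.0 and 48.4 CPM in batch 1 (62.5 ± 23.8, SD, n = 3), at 29.5 and 28.2 CPM in batch 2, and at 0.0201 CPM in 1 separated 2-cell embryo and 0 in the other 4. The ratio was 11768 with a 95% counting interval of 2110 to 464980 (edgeR adjusted p = 0.00128). Mrpl19, a protein of the large mitochondrial ribosomal subunit, was low but even in batch 1, at 3.56, 4.76 and 3.99 CPM, and at 63.8 and 50.9 CPM in batch 2, above the 5.59 to 10.5 CPM of intact 4-cell embryos. Its ratio was 763 (135 to 30301, edgeR adjusted p = 0.00539). Pigk, the catalytic subunit of the enzyme that attaches GPI anchors, was high in 1 batch 1 embryo only, with 0.316, 0.0643 and 21.5 CPM, and in both batch 2 embryos, with 16 and 13.4 CPM (ratio 1199, 213 to 47523, edgeR adjusted p = 0.0364). The predicted gene Gm34653 showed the opposite order of batches, with 37.2, 13.8 and 11.8 CPM in batch 1 and 0.174 and 0.15 CPM in batch 2 (ratio 4012, 718 to 158635, edgeR adjusted p = 0.00873).

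Zfp317, a KRAB zinc finger protein, was at 22.6, 27.3 and 16.1 CPM in batch 1 (22.0 ± 5.62, SD, n = 3) and at 14.3 and 18.2 CPM in batch 2, with 0.309 CPM in separated 2-cell embryo 3 and 0 in the other 4. The ratio of the embryo means, not of pooled counts, was 356 (edgeR adjusted p = 0.0462). Apobec3, a cytidine deaminase that restricts retroviruses, was at 15.2, 8.83 and 26.5 CPM in batch 1 and 31.1 and 28.2 CPM in batch 2, against 0 to 0.397 CPM at the 2-cell stage (ratio of means 192, edgeR adjusted p = 0.039). Fbp2, Dnajc24, Dmac1, Mrpl19, Crygs, Sycn and Gm34653 stayed below an adjusted p of 0.05 in each of the 10 fits that left out 1 embryo. Zfp317 lost the call in 9 of them and Apobec3, Pigk and Cacng7 in 8 each.

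**Figure D3:**
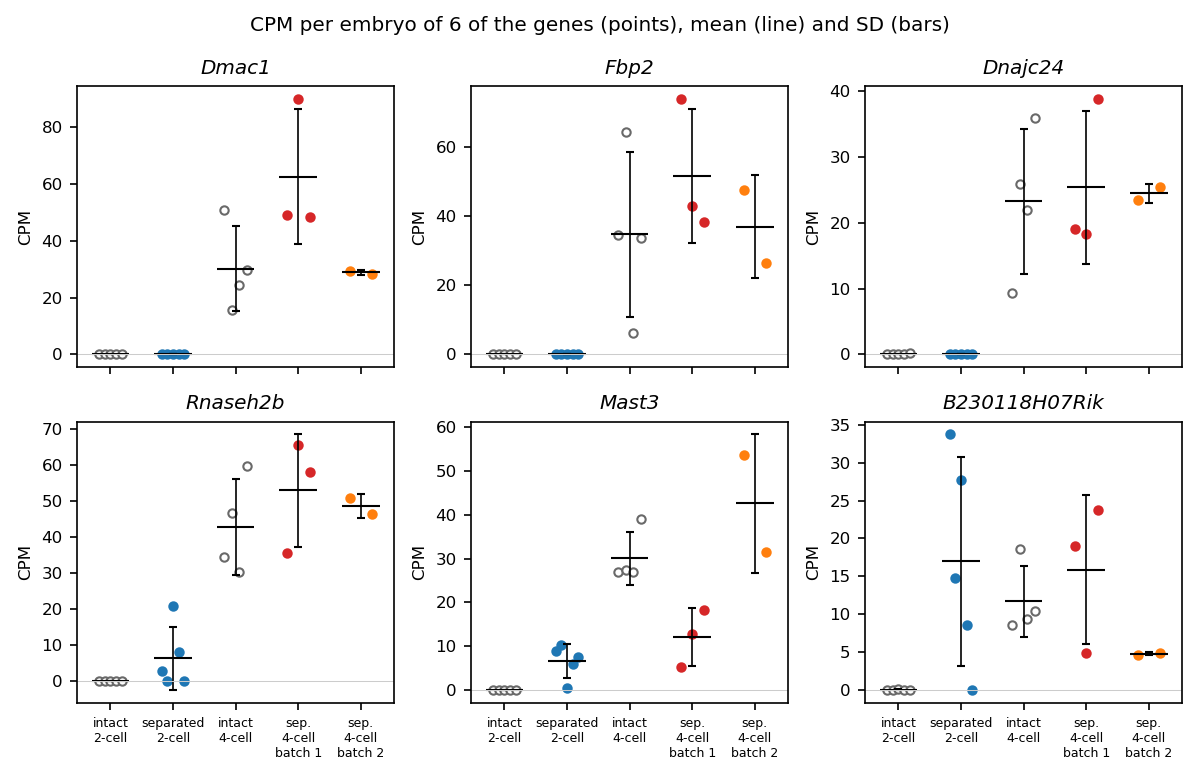
CPM per embryo (y axis, linear, a separate scale for each gene) of 6 genes in the 5 groups of embryos; points are embryos, lines the mean and bars the SD. Open points are the intact embryos that chose the genes. Dmac1, Fbp2 and Dnajc24 lie at or near 0 in all separated 2-cell embryos, Rnaseh2b and Mast3 do not, and B230118H07Rik overlaps between separated stages.

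The label of the genes as off at the 2-cell stage did not hold in separated embryos for most of them. Only 7 of the 49 had no count there, and 17 were under 0.5 CPM in all 5 embryos. At 5 CPM or more in at least 1 separated 2-cell embryo were 31 genes (63.3%), against 24.7% of the 3202 tested genes that were under 0.5 CPM in every intact 2-cell embryo. Of the 31, 18 were at 5 CPM or more in 1 embryo, 10 in 2, 1 in 3 and 2 in 4. Summed over the 49 genes, the level was 1.59 to 3.24 CPM in intact 2-cell embryos and 85.5 to 253 CPM in separated ones. It was 1060 to 1330 CPM in separated 4-cell embryos of batch 1 and 2360 and 2550 CPM in batch 2. Gm38299 and CT010467.2 made up much of some sums. Without them the sums were 1.33 to 3.1 CPM in intact and 71.5 to 237 CPM in separated 2-cell embryos. At the 4-cell stage they were then 818 to 1090 CPM in batch 1 and 1710 and 1660 CPM in batch 2. Separated embryos were sequenced as single blastomeres and to a higher total per embryo. The blastomeres of separated 2-cell embryo 5 had 5.93 and 8.3 M counts, with 7 and 1 of the genes at 5 CPM or more. The part of separation, input per library and depth was not tested.

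B230118H07Rik, an unnamed protein-coding gene whose exons overlap those of Rag1 and Rag2, had the highest mean CPM of the 49 in separated 2-cell embryos. It was at 33.8, 14.7, 27.7, 8.61 and 0 CPM there and at 19, 4.83 and 23.8 CPM in batch 1 4-cell embryos (edgeR adjusted p = 0.966). The ranges overlapped. Mast3, a serine/threonine kinase, was at 8.82, 10.3, 0.485, 5.91 and 7.52 CPM in separated 2-cell embryos although no intact 2-cell embryo had a count, and at 5.19, 12.9 and 18.2 CPM in batch 1 4-cell embryos (edgeR adjusted p = 0.691). Idh3b, a subunit of the isocitrate dehydrogenase of the citric acid cycle, had a value above 1 CPM in each separated 2-cell embryo, at 24.6, 1.41, 4.63, 3.59 and 14.7 CPM, and 47.2, 16.5 and 33.8 CPM in batch 1 (edgeR adjusted p = 0.234).

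The other genes high in separated 2-cell embryos owed their mean to 1 to 3 embryos. Abcd4, a cobalamin transporter of the lysosome, was at 48.3 and 25.4 CPM in embryos 2 and 4, 4.01 in embryo 5 and at most 0.0231 in the remaining ones. At the 4-cell stage it was as uneven, with 172, 19.6 and 0.383 CPM in batch 1 and at most 0.265 CPM in batch 2. Ccnb3, cyclin B3 of meiosis and early mitosis, reached 48.2 CPM in 1 separated 2-cell embryo, 5.87 in another and at most 0.0402 in the others, and stood at 37.8, 38 and 49.6 CPM in batch 1 (edgeR adjusted p = 0.629). Nudt9, an ADP-ribose hydrolase, was the gene with the lowest fitted value, -1.98 ± 2.18 (SE) on the log2 scale, with 0 to 23.7 CPM in separated 2-cell and 1.42 to 2.91 CPM in batch 1 4-cell embryos (edgeR adjusted p = 0.618). Drc1, of the dynein regulatory complex of cilia, was at 18 and 19.1 CPM in 2 separated 2-cell embryos and 0 in the other 3, against 4.98 to 12.1 CPM in batch 1.

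Among single 2-cell blastomeres these levels mostly came from 1 sister. Where one of the genes had an embryo level of 5 to 100 CPM, which happened in 49 pairs of gene and embryo, 40 (81.6%) had 5 CPM or more in only 1 of the 2 sisters, against 46.2% of such pairs over tested genes. Tfam, a factor of the transcription and packaging of mitochondrial DNA, was at 30.5 CPM in 1 of the 10 blastomeres and at most 0.0297 CPM in the other 9. Rnaseh2b, a subunit of the ribonuclease H2 that removes ribonucleotides from DNA, was at 38.2 and 37.4 CPM in 1 blastomere each of embryos 3 and 4, at 0 and 0.0454 CPM in their sisters. Mast3 reached 5 CPM in 6 of 10 blastomeres, and in both sisters of embryos 1 and 2.

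**Figure D4:**
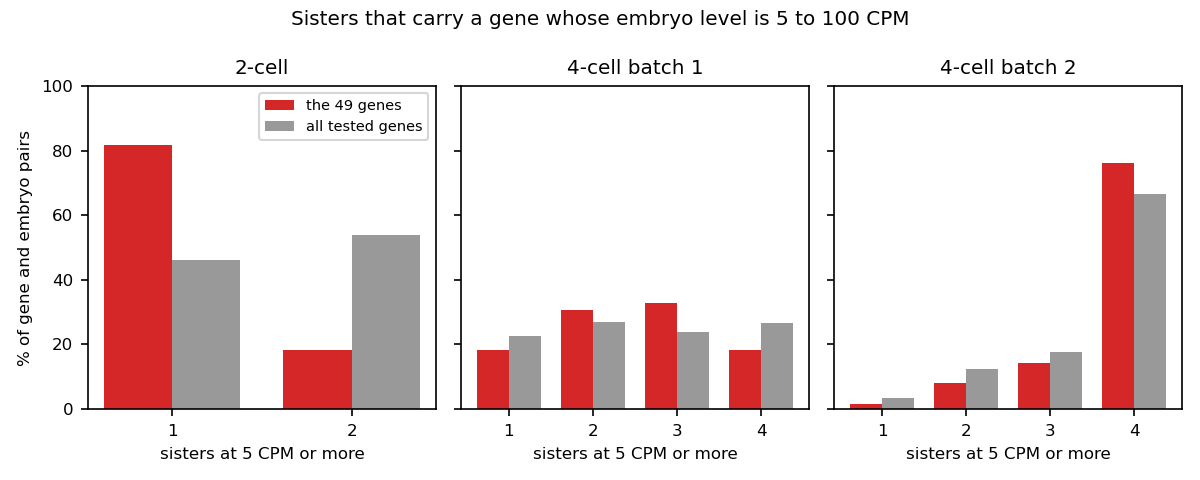
Share (y axis, % of gene and embryo pairs with an embryo level of 5 to 100 CPM) by the number of sister blastomeres at 5 CPM or more (x axis), for 2-cell embryos, 4-cell batch 1 and 4-cell batch 2; red bars are the 49 genes and grey bars all tested genes. In 2-cell embryos 81.6% of the red pairs and 46.2% of the grey ones have 1 sister at that level, and in batch 2 76.2% and 66.5% have all 4.

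At the 4-cell stage the genes were found in more blastomeres. A 2-cell blastomere held 1 to 11 of the 49 at 5 CPM or more (median 7, n = 10), a batch 1 4-cell blastomere 20 to 30 (median 23.5, n = 12) and a batch 2 blastomere 32 to 37 (median 35, n = 8). The groups of blastomeres did not overlap. Blastomeres of an embryo are not independent, and 2-cell blastomeres had the larger totals (5.93 to 44 M counts, against 2.40 to 5.23 M in batch 1). Over tested genes the share at 5 CPM or more was 34.6 to 41.2% in 2-cell, 30.5 to 36.5% in batch 1 and 45.5 to 51% in batch 2 blastomeres. With the 20 4-cell blastomeres thinned to 2.02 M counts, and the 2-cell ones not thinned, a 4-cell blastomere of batch 1 had a count for 26 to 37 of the 49 and one of batch 2 for 39 to 46, against 27 to 39 and 40 to 49 without thinning. A 2-cell blastomere had a count for 9 to 21. Without thinning, 49.2 to 62.2% of tested genes had a count in 2-cell, 44.6 to 56.2% in batch 1 and 63.5 to 81.8% in batch 2 blastomeres. The share after thinning was not taken.

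**Figure D5:**
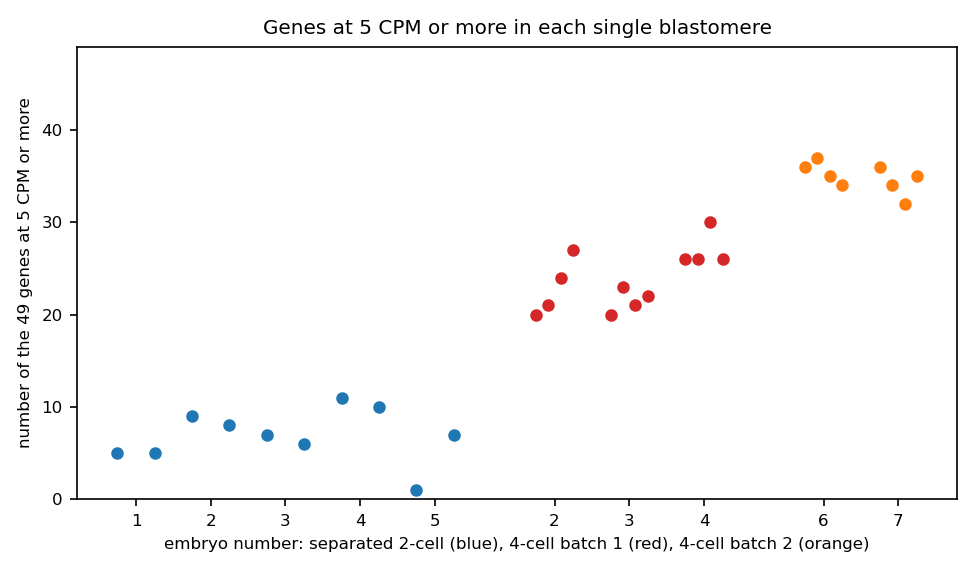
Number of the 49 genes at 5 CPM or more (y axis) in each of 30 single blastomeres, grouped by embryo number (x axis); blue are 2-cell embryos, red 4-cell batch 1 and orange 4-cell batch 2. The 2-cell blastomeres reach at most 11, those of batch 1 lie at 20 to 30 and those of batch 2 at 32 to 37.

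Dmac1 and Dnajc24 reached 5 CPM in 11 of the 12 batch 1 blastomeres and in all 8 of batch 2, and Crygs in 10 and 7. Fbp2 was at 6.69, 19.1, 125 and 143 CPM in the 4 sisters of embryo 2, but at 0 in 2 sisters of embryo 3 and 1 of embryo 4. Over the genes, pairs with an embryo level of 5 to 100 CPM had all 4 sisters at 5 CPM or more in 18.3% of 104 cases in batch 1 (26.6% over tested genes) and in 76.2% of 63 cases in batch 2 (66.5%).

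The 3 batch 1 embryos were compared with blastomeres as libraries, where 35 of the 49 genes passed the filter. None was called, against 0.152% of 7215 genes (edgeR, adjusted p under 0.05), and limma voom called 0. An unadjusted edgeR p under 0.05 was found for 2 of the 35, with no share of all genes taken beside it. The smallest p was that of Gm38299 (p = 0.00425 by edgeR, adjusted p = 0.292). Its blastomeres were at 447, 764, 598 and 0.68 CPM in embryo 3 and at most 2.54 CPM in embryo 2, and in embryo 4 1 blastomere was at 302 CPM with the others at most 10.6. Tfam followed (edgeR p = 0.0383, adjusted p = 0.498), with 37.7 to 73.1 CPM in embryo 2 and 0 to 3.40 CPM in embryo 3.

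Between batches of separated 4-cell embryos, none of the 49 passed, against 0.720% of tested genes (edgeR adjusted p under 0.05). At an unadjusted p under 0.05 there were 4, DESeq2 called 4, and edgeR without the filter on low counts called 1. The share of all tested genes was not taken for these counts, so they cannot be read as high or low. With 3 embryos against 2, single genes differed widely. Hand1, a helix-loop-helix factor of trophoblast, was at 39.2, 4.63 and 31.4 CPM in batch 1 and at 219 ± 4.42 CPM in batch 2 (SD, n = 2, edgeR adjusted p = 0.548), where all 8 blastomeres lay between 76.3 and 402 CPM. Grn, which encodes the lysosomal protein progranulin, was at 28.5, 46.1 and 41.9 CPM in batch 1 and at 311 and 250 CPM in batch 2 (adjusted p = 0.616). CT010467.2, a 237-base pseudogene named here after its values were seen, was at 3.23 to 7.36 CPM in batch 1, 6.44 to 20.5 CPM in intact 4-cell embryos and 652 and 878 CPM in batch 2 (edgeR adjusted p = 0.261). Calm5, a calmodulin gene without introns in its model, had no count in batch 1 and 3.13 CPM in each batch 2 embryo (adjusted p = 0.244), against 5.96 to 15.7 CPM in intact 4-cell embryos.

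In all, 23 genes were at 5 CPM or more in each batch 1 4-cell embryo, 33 in both batch 2 embryos and 18 in all 5, while 3 reached it in no batch 1 embryo and 11 in neither batch 2 embryo. Prmt9, an arginine methyltransferase, was among the lowest, at 6.77, 0.129 and 0 CPM in batch 1 but at 22.0 and 23.0 CPM in batch 2. Tmem214, a membrane protein of the endoplasmic reticulum, was at 0.506, 12 and 0.69 CPM, and the antisense RNA 2900060B14Rik at 0.354, 9.76 and 0.512 CPM. Bloc1s1, a subunit of the BLOC-1 complex of lysosome-related organelles, was even, at 39.2, 35.1 and 35.5 CPM in batch 1, and at 0 to 6.10 CPM in separated 2-cell embryos (fitted log2 fold change 3.67 ± 1.60, SE, edgeR adjusted p = 0.179).

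Several genes did not pass the test although every batch 1 4-cell embryo lay above every separated 2-cell embryo. Rnaseh2b was at 35.5, 65.4 and 57.9 CPM against 0 to 20.8 CPM (2.90 ± 1.68 on the log2 scale, SE, edgeR adjusted p = 0.285). Rbm41, which has an RNA recognition motif, was at 33.5, 29.6 and 37.7 CPM against 0 to 5.87 CPM (4.69 ± 2.07, adjusted p = 0.183). AC127285.1 was at 8.66, 4.50 and 3.30 CPM against 0 to 0.201 CPM (5.53 ± 1.71, adjusted p = 0.0825), but at 0.0291 and 0.207 CPM in batch 2. The ranges overlapped for the fatty acid oxidation enzyme gene Acadl, at 9.55, 22.5 and 36.4 CPM against 28.6 CPM in 1 separated 2-cell embryo and 0 in the other 4 (adjusted p = 0.684). They also overlapped for Fbxo31, a receptor subunit of a ubiquitin ligase (6.05 to 21.9 against 0 to 13.9 CPM), and for Ttc4, a co-chaperone of Hsp90 (7.67 to 22.6 against 0 to 16 CPM). Zfp267 was at 22.8, 14.5 and 0.23 CPM against 16 CPM in 1 embryo and at most 0.101 in the others. The long noncoding RNA E430024I08Rik was at 31.5 CPM in 1 batch 1 embryo and at most 0.515 in the other 2 (adjusted p = 0.0954).

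Each list that holds any of the genes was counted in the same fit. Of 81 tested genes of the mitochondrial ribosome, 7 were higher and 0 lower at the 4-cell stage (median log2 fold change 1.30), and Mrpl19 was 1 of the 7. In mitochondrial import, carriers and gene expression, which held Tfam, 3 of 79 were higher and 1 lower (median 0.72). Sugar and lipid enzymes, with Fbp2 and Acadl, had 7 higher and 1 lower of 114 (median 0.0851), and zinc finger proteins, with Zfp317 and Zfp267, 13 higher and 9 lower of 399 (median -0.455). DNA replication and repair, with Rnaseh2b, had 5 higher and 4 lower of 142 (median 0.113), and protein kinases, with Mast3, 4 higher and 6 lower of 247 (median -0.266). Ubiquitin system genes, with Fbxo31, had 5 higher and 19 lower of 294 (median -0.276). The list of cilium and centrosome genes had 1 higher and 5 lower of 189 (median -0.758). It held Ttc4, described above as a co-chaperone, but not the ciliary gene Drc1. Splicing and mRNA processing, with Rbm41, had 4 in each direction of 164 (median 0.359), and TMEM proteins, with Tmem214, 8 higher and 4 lower of 162 (median 0.064). Predicted and unnamed genes, which held 11 of the 49, had 74 higher and 80 lower of 4051 (median -0.57). Over all tested genes 2.66% were higher, 2.42% lower and the median was -0.18.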

How the data were processed

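RNA was measured in 39 libraries of wild-type mouse embryos made by Smart-seq2, a full-length method that primes on the poly(A) tail, per the labels' protocols. Trim Galore 0.6.10, STAR 2.7.3a and RSEM 1.2.28 and the build GRCm38 are named in the submitters' processing notes. The deposited values are the authors' expected counts for each gene. Of those above 0, 12.65% are not whole, and all were rounded for the tests (CPM use the values as deposited). RSEM shares reads between similar genes, so values of close copies are uncertain. CPM are per total of the library. Sister blastomeres were summed per embryo. The 49 genes, the gene lists and the tests were chosen with earlier results of these data known.

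Only separated embryos entered the main test, edgeR 4.0.16 quasi-likelihood with TMM, filterByExpr (16795 genes), stage and batch as terms, so that the 4-cell level is that of batch 1. There were 7 residual and a median of 3.94 prior degrees of freedom, and the biological coefficient of variation came to 1.545. A gene is higher or lower at a Benjamini-Hochberg adjusted p under 0.05. An SE is the size of a log2 fold change divided by the root of its F. Folds against no count use 3 counts for the group, and those against 1 to 3 counts carry a 95% counting interval; both are from counts pooled over a group and cover counting error only. Against more counts, a fold is the ratio of embryo means.

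Genes are named by rule: those that passed and have a symbol other than a predicted one (up to 12), the 6 highest in separated 2-cell, 6 lowest in batch 1 and 6 highest in intact 4-cell embryos, up to 3 per list by smallest p, and those nearest the limits. Alternatives were DESeq2 1.42.0 and its size factors, limma 3.58.1 voom, other filters, fits and limits, thinning, and each embryo left out. Promoters are RefSeq windows and gene models GENCODE M21, of which 46 of the 49 matched 1. R 4.3.3, Python 3.11.15, numpy 2.4.6, pandas 2.3.3 and matplotlib 3.10.9 were used.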

Additional observations from a re-analysis of the deposited data

Results flagged for a closer look

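Separated 2-cell embryos, which had no part in the choice of genes, were compared within their group. For 25 named genes with over 3 counts there, the highest or lowest of the 5 embryos was set against the others with Dixon's test at 95%, and 11 genes had an embryo apart. The usual chance rate of 1 in 20 groups assumes normally distributed values. It does not apply to levels with a floor at 0, so the count cannot be set against it. Acadl, Prmt9, Grn and Zfp317 were at 0 outside the flagged embryo, and such a group is always flagged. Tfam (at most 0.0231 CPM) and Rbm41 (at most 0.0703 CPM) were near 0 outside it. Ccnb3 was also named for its high mean in this group. No share over all tested genes was taken.

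The embryo apart was always the highest, and the floor at 0 leaves little room for a lowest one. Embryo 3 stood apart for Acadl (28.6 CPM), Prmt9 (17.7 CPM), Tfam (16.6 CPM), Fbxo31 (13.9 CPM), Grn (8.21 CPM), Apobec3 (0.397 CPM) and Zfp317 (0.309 CPM). Embryo 4 stood apart for Ccnb3 (48.2 CPM), Hand1 (9.29 CPM) and Rbm41 (5.87 CPM), and embryo 1 for Zfp267 (16 CPM).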

How the results depend on the processing

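The count of 12 genes higher in separated 4-cell embryos was 8 to 18 under 11 other settings of scaling, filter, test, samples and thinning, of which the thinning of sisters to equal totals was added after seeing the data; the share of all tested genes that were higher, 2.66%, was 2.02 to 9.59% there. Among these settings, all embryos in 1 fit (16 genes, share 4.45%) also held the intact embryos that chose the genes. Its dispersion comes in part from selected values, so that count is description only. The count was 25 with each blastomere as a library (share 12.5%), 4 with the stricter limits (12 genes chosen) and 29 with the looser ones (143 chosen). Leaving out single embryos gave 7 to 13 (share 0.852 to 3.36%). The replicate numbers did not pair the embryos (same-number correlations of separated embryos were -0.004254, -0.01241 and 0.008318 over 4499 genes); with them as a block, 0 of the 49 and 32 genes in all were called and the median was 6.533.

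All genes called, 854 of which 52.3% were higher, were 3512 with DESeq2 (41.5% higher), 1329 with all embryos in 1 fit, 1287 without a batch term and 2161 at the level of batch 2 (74.5% higher). They were 2717 with blastomeres as libraries and 311 to 983 with single embryos left out. Genes whose groups do not overlap, 21, were 36 at the level of batch 2 (where the share over tested genes rose from 11% to 30.5%), 5 with stricter and 64 with looser limits, and 21 to 26 with single embryos left out (share 12.4 to 15.9%). The median log2 fold change of the genes, 2.955, was 5.775 with limma voom and 2.605 to 3.747 with single embryos left out; the median of all genes moved from -0.18 to 0.457 with limma voom. Genes called between batches, 0, were 1 without a filter, 4 with DESeq2 and 0 to 0 with single embryos left out, as between embryos. The share of all tested genes was not taken for these batch settings. Genes without a count in separated 2-cell embryos, 7, became 17 under 0.5 CPM. Genes detected per 4-cell blastomere, a median of 35.5, became 26.5 at 5 CPM or more. The cause was not tested, beyond the smaller number of samples or genes in a setting.

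Of 777 values of named genes, 664 kept direction and side of the threshold, 62 lost and 26 gained the call, and 25 changed sign, none of them past the threshold. At the level of batch 2 the log2 fold change was -6.776 for Abcd4, -0.7061 for Ccnb3, 0.8243 for Nudt9, 2.654 for Prmt9 and -0.8499 for Gm38299. With limma voom it was 0.6404 for B230118H07Rik, 1.313 for Nudt9 and 2.079 for Prmt9. With each blastomere as a library it was 0.8305 for Nudt9 and 1.521 for Prmt9, and with the replicate block 0.1784 for Prmt9 and -0.2746 for Tmem214. With single embryos left out, it ran from -0.6 to 0.2074 for B230118H07Rik, from -0.7708 (without 4-cell embryo 2) to 3.101 for Abcd4, from -0.1308 to 0.9114 for Drc1, from -5.868 to 9.632 (without 2-cell embryo 3) for Prmt9 and from -2.662 (without 4-cell embryo 3) to 0.898 for Tmem214.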
